A study of Mus musculus with 3 samples.

Results

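The binding sites of the circadian activators CLK (CLOCK) and BMAL1 were examined at 4 genes of the clock output pathway, Dbp, Tef, Hlf and Nfil3. A site was taken when the authors' annotated table gave it one of these symbols, whatever its class, and it was then matched to the CLK and BMAL1 peaks that overlapped it by at least 1 bp. This gave 9 of the 2127 sites of the table, 3 at Dbp, 2 at Tef, 3 at Hlf and 1 at Nfil3. The material was liver of adult C57BL/6 mice aged 3 to 6 months, kept on a cycle of 12 h of light and 12 h of darkness and collected at ZT8, the 8th hour after lights on. One library was made with the anti-CLK antibody, one with the anti-BMAL1 antibody and one from chromatin without antibody (Input), all from the same liver extract. With 1 library per antibody no value has a replicate, so no test between the genes was made. Intervals given for tags cover counting error alone, and copies made by PCR are not separate molecules.

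DBP, TEF and HLF are the PAR bZIP proteins, leucine zipper activators named for a proline and acidic amino acid rich domain. They bind the D-box, a palindromic element, and drive rhythmic genes of liver metabolism and detoxification. NFIL3, also called E4BP4, is a related leucine zipper protein that occupies the same element and represses. Transcription of the PAR bZIP genes is known to be activated by the CLK:BMAL1 dimer through the e-box, whereas Nfil3 is known to be repressed by REV-ERBα through ROR elements.

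The sequences under the sites at the activators carry the comparison and are given first, as the plus strand of mm9 around the hexamers near the BMAL1 summit, the position of highest signal in a peak. The summit itself lies outside the stretch shown for the Tef 3' flank, the Hlf start site and the Hlf intron. Capitals mark each CACGTG e-box in the stretch shown, or, where the site had none, each hexamer that differs from it at 1 base. At Tef 3' flank the second motif in capitals is a D-box, TTATGTAA read on the minus strand. Stretches that would enter an annotated UTR were cut to the flanking sequence or to 30 bases around the hexamer.
Dbp upstream (chr7:52960301-52960457): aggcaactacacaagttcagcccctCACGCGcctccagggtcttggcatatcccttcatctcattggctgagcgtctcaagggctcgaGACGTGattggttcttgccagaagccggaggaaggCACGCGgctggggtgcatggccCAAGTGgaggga
Dbp intron 1 (chr7:52961406-52961489): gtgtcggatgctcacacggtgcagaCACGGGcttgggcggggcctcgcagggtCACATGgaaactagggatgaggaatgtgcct
Dbp intron 2 (chr7:52963057-52963225): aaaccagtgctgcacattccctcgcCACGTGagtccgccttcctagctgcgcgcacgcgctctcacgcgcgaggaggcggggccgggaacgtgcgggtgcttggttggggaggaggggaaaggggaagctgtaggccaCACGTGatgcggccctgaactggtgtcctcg
Tef internal start (chr15:81641348-81641475): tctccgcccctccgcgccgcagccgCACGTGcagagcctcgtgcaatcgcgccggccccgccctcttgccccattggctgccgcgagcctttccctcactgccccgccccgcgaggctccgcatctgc
Tef internal start, e-box at the CLK summit (chr15:81641472-81641501): ctgctgccgctcCACGTGaccctcggggct
Tef 3' flank (chr15:81666989-81667111): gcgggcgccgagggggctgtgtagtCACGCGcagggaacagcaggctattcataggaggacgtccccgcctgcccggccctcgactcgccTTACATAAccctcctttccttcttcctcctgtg
Hlf far upstream (chr11:90279400-90279548): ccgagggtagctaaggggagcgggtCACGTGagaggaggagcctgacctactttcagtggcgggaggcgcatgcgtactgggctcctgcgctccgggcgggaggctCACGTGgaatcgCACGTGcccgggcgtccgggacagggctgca
Hlf start site (chr11:90252197-90252226): catcaggcagtcCATGTGccgctgccctga
Hlf intron (chr11:90231146-90231201): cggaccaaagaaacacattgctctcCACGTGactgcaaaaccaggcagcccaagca

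The single site of Nfil3 is shown apart, because it is the only site of the repressor gene and carried 2 e-boxes. The capitals mark these.
Nfil3 intron (chr13:53070202-53070272): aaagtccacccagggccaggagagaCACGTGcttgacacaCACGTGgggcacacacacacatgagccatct

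The activators and the repressor differed in the number of sites and in their class. Dbp and Hlf had 3 sites each and Tef had 2, whereas Nfil3 had 1. Of the 1816 gene symbols in the table, 10.5% had at least 2 sites and 1.76% had at least 3. All 3 sites of Dbp and both sites of Tef were bound by CLK and BMAL1, as was 1 of the 3 sites of Hlf. The other 2 sites of Hlf and the site of Nfil3 had a BMAL1 peak without a CLK peak, and no member site had CLK alone. Shared sites were thus 6 of 9, against 9.92% of the whole table. One of these, the Tef 3' flank site, was given to Tef through a short transcript and its target gene is uncertain. Without it Tef had 1 site and 5 of 8 sites were shared. The shared Hlf site lay between genes, 27315 bp from the start, and its target gene was not tested either. The MACS score of a peak, 10 times −log10 of its p-value against Input, was at least 400 for 18 BMAL1 peaks, and all 18 overlapped a CLK peak. Of the 170 BMAL1 peaks with a score from 100 to 200, 45.9% did. Nfil3, with a BMAL1 score of 125.43, and the Hlf start site, with 146.40, fell in that lower band, as did the shared Tef 3' flank site with 144.35.

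**Figure D1:**
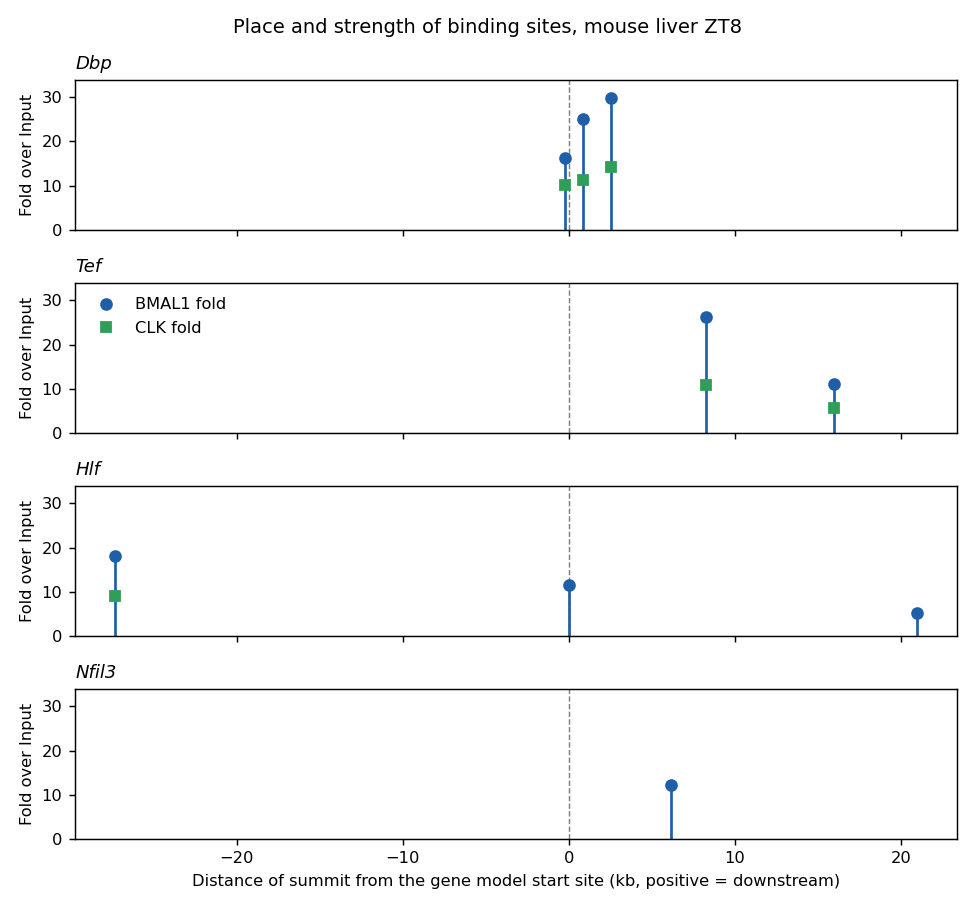
Fold enrichment over Input (y axis) of each BMAL1 peak (blue circles) and CLK peak (green squares) against the distance of the summit from the start of the gene model in the authors' table (x axis, kb, positive downstream), 1 library per antibody. The 3 Dbp sites lie within 3 kb of the start, Hlf has its strongest site 27315 bp upstream, and Nfil3 has 1 BMAL1 peak without CLK. The Tef sites are placed from different gene models, which start at 81633247 (internal start) and 81651023 (3' flank). Their spacing on the axis is therefore not their distance on the genome.

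Dbp encodes the founding member of the PAR bZIP group, and lies on mm9 chromosome 7 (52960602 to 52965521 in the table, counted from 1). In and just upstream of it were 3 shared sites with BMAL1 summits spread over 2689 bp. The upstream site had a BMAL1 peak from 52959593 to 52960921 with 163 tags (95% Poisson interval 138.9 to 190.0) and a fold enrichment of 16.3. Its CLK peak held 101 tags (82.3 to 122.7) at a fold of 10.03. The CLK summit lay 247 bp upstream of the start in the table and 103 bp upstream of the GENCODE M1 transcript Dbp-001. The intron 1 site, 852 bp downstream of the start, had 125 BMAL1 tags (104.0 to 148.9; fold 24.99) and 74 CLK tags (58.1 to 92.9; fold 11.3). The intron 2 site was the strongest of the 3. There BMAL1 had 220 tags (191.9 to 251.1) at a fold of 29.9, and CLK had 117 (96.8 to 140.2) at a fold of 14.3. Its CLK summit was 2523 bp downstream of the start and lay within an exon of a non-coding transcript of Dbp (Dbp-003). By BMAL1 score these sites ranked 10, 13 and 5 among 1578 peaks, and by CLK score 9, 23 and 13 among 759. The order from upstream to intron 2 differed between measures. Intron 1 had fewer BMAL1 tags than the upstream site, but its peak was shorter (822 against 1329 bp) and its fold enrichment was higher.

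Tef, thyrotroph embryonic factor, is transcribed from more than one start. Its strongest site, on chromosome 15, was 8243 bp downstream of the start in the table but within 14 bp of the start of the GENCODE transcript Tef-008, in its UTR. The CLK summit there lay 1 bp beyond the second e-box shown above for this site, 4 bp from position 3 of the hexamer. BMAL1 had 193 tags (166.7 to 222.2) with a fold of 26.2, and CLK had 102 (83.2 to 123.8) with a fold of 10.7. The site ranked 4 in the BMAL1 list and 7 in the CLK list by score. RefSeq lists 2 promoter windows for Tef, and matching their sequence to mm9 placed the starts at 81633103 and 81641844. The latter lay inside the strong BMAL1 peak, 392 bp from its summit. The former lay inside a weaker BMAL1 peak that the table gives to another transcript. The Tef 3' flank site was 15993 bp downstream of the start of a short Tef transcript (AK189278) and between genes. It had 51 BMAL1 tags (38.0 to 67.1; fold 11.1) and 33 CLK tags (22.7 to 46.3; fold 5.68), and its CLK peak ranked 303 of 759. Its nearest annotated start of any gene was that of Gm8444, at 7113 bp, which was nearer than the closest Tef start, at 15643 bp.

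The strongest site given to Hlf, hepatic leukemia factor, lay far from its start. The shared site on chromosome 11 lay 27315 bp upstream, between genes, and Hlf-201 was the nearest annotated transcript. It had 111 BMAL1 tags (91.3 to 133.7; fold 18.2) and 64 CLK tags (49.3 to 81.7; fold 8.92), and it ranked 17 by BMAL1 score and 33 by CLK score. The authors gave intergenic peaks to the gene with the closest start and inspected the shared ones manually. Whether Hlf is the target of this site was not tested. Without it, Hlf had only BMAL1 peaks without a CLK peak. The site at the start itself had its BMAL1 summit 4 bp downstream of the start in the table. It held 49 BMAL1 tags (36.3 to 64.8) at a fold of 11.4, and no CLK peak was called there. The site in the gene body, 20983 bp downstream, was the weakest of the 9. It had 30 BMAL1 tags (20.2 to 42.8), a fold of 5.09, below the median of 6.80 of all BMAL1 peaks, a score of 52.8 close to the calling limit of 50 and an FDR of 8.75%. Hlf thus had both the only member site that ranked below 500 in the BMAL1 list, at 1257, and a site among the 25 of highest score.

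Nfil3, on chromosome 13, had 1 BMAL1 peak from 53070044 to 53070522. Its summit was in an intron by GENCODE M1, 6141 bp downstream of the start in the table. The peak held 39 tags (27.7 to 53.3), had a fold of 12.2 and an FDR of 0.65%, and ranked 154 by score and 106 by fold of 1578. No BMAL1 or CLK peak lay at the Nfil3 start, and no other peak of either list lay within 50000 bp of it or inside the gene. Each of the other 3 genes had a BMAL1 peak over a RefSeq start. A CLK peak was not called at the Nfil3 site, and the lists hold only peaks past the threshold, so the CLK level there is not known.

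**Figure D2:**
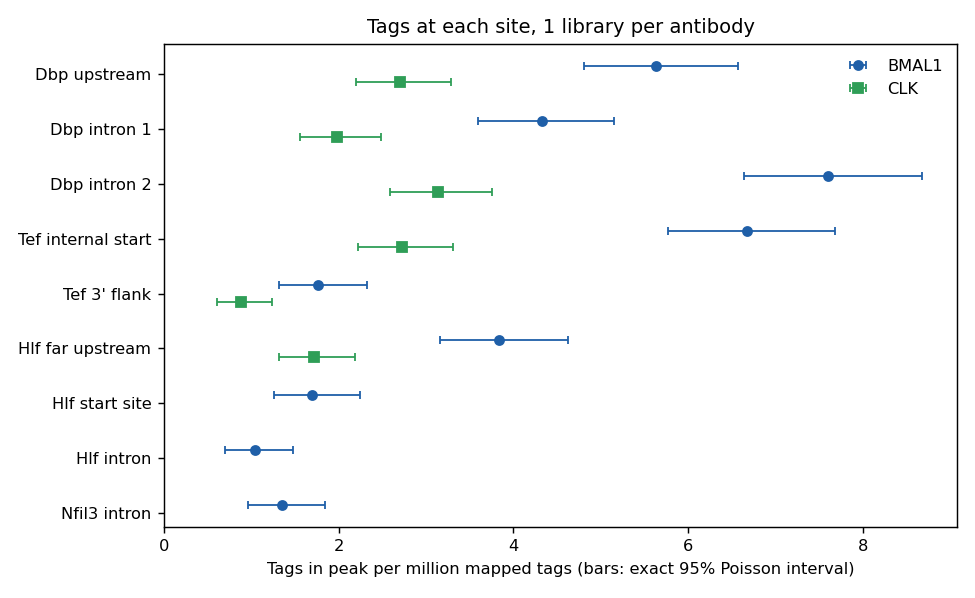
Tags in each BMAL1 peak (blue circles) and CLK peak (green squares) scaled to 1000000 mapped tags (x axis) for the 9 sites (y axis), with exact 95% Poisson intervals for counting error, 1 library per antibody. BMAL1 ranges from 1.04 at the Hlf intron to 7.61 at Dbp intron 2, and the interval of Nfil3 (0.959 to 1.84) overlaps those of the Hlf start site, the Hlf intron and the Tef 3' flank but none of the other 5.

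The strongest sites of the 4 genes could be ordered as far as counting error allowed. Dbp had 1.14 times the BMAL1 tags of Tef (exact binomial interval 0.935 to 1.39), so these neighbours were not separated. Dbp, Tef and Hlf had 5.64 (3.999 to 8.15), 4.95 (3.49 to 7.17) and 2.85 (1.96 to 4.21) times the BMAL1 tags of Nfil3. Each activator value was the highest of 2 or 3 peaks, whereas Nfil3 had 1. That choice favours the activators, and the intervals do not allow for it. The difference was smaller per length of peak, with 2.37, 1.94 and 1.51 times the tags per kb, since the Nfil3 peak was 479 bp long and the others 900 to 1223 bp. In fold enrichment the ratios were 2.46, 2.16 and 1.49. Nfil3 was not set apart from every activator site. The Hlf start site, the strongest of Hlf if the far upstream site is left out, had 1.26 times the BMAL1 tags of Nfil3 (0.808 to 1.97). The fold of Nfil3, 12.2, exceeded that of the Hlf start site, the Hlf intron and the Tef 3' flank.

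**Figure D3:**
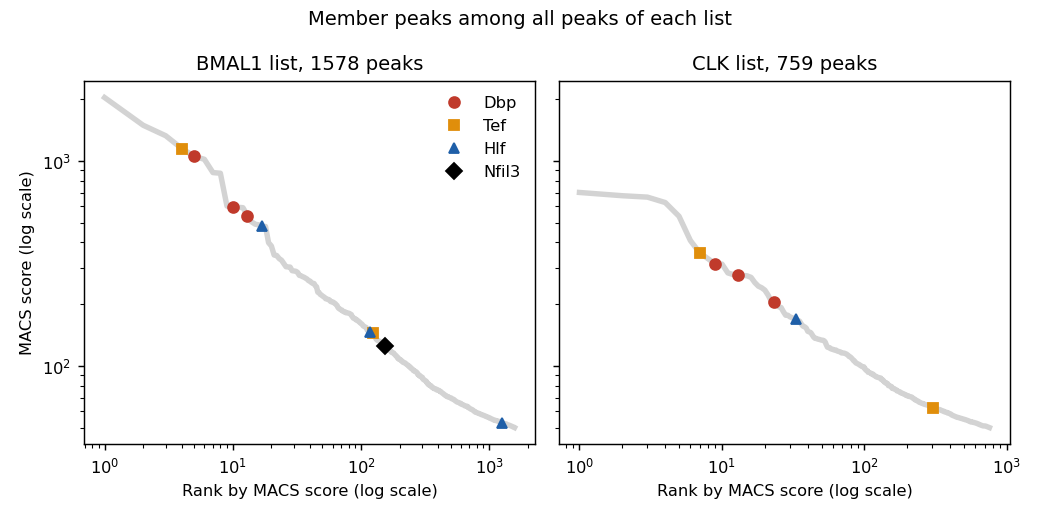
MACS score (y axis, log scale) against rank (x axis, log scale) for all peaks of the BMAL1 list (left) and the CLK list (right) in grey, with the sites of Dbp, Tef, Hlf and Nfil3 as symbols. The 5 strongest activator sites lie at ranks 4 to 17 for BMAL1 and 7 to 33 for CLK, while Nfil3 lies at rank 154 and only in the BMAL1 list.

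Most member peaks were far above the calling limit. A BMAL1 score of at least 100 was reached by 8 of the 9 sites, against 14.8% of all BMAL1 peaks. A CLK score of at least 100 was reached by 5 of the 6 CLK peaks, against 12.4% of all CLK peaks. The deposited CLK FDR was nevertheless between 4.93% and 14.3% at these 6 peaks and above 5% at 5 of them, with the lowest value at the weakest peak, Tef 3' flank. The libraries held 37371047 (CLK), 28920754 (BMAL1) and 18846303 (Input) mapped tags.

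BMAL1 gave more tags than CLK at each shared site after scaling to the library. The ratio of scaled tags was 2.09 at Dbp upstream, 2.18 at Dbp intron 1, 2.43 at Dbp intron 2, 2.45 at the Tef internal start, 2.00 at the Tef 3' flank and 2.24 at Hlf far upstream. The lowest bound of the exact 95% intervals was 1.26 and the highest 3.19, and the 6 intervals overlapped each other. Over the 212 overlapping pairs of peaks in the lists the median ratio was 1.53 (interquartile range 1.199 to 1.965), and 75.5% of pairs had a ratio below the lowest of the 6. Among the 19 pairs with a BMAL1 score of at least 400 the median was 2.43 (1.47 to 3.80), a set that includes 5 of the 6 member sites. Member BMAL1 peaks were longer than their CLK peaks, and per kb of peak the median ratio over the 6 sites was 1.57 in place of 2.21. The ratio compares different antibodies and says nothing about how many molecules of each protein were bound.

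CLK and BMAL1 summits at the shared sites were 6 and 11 bp apart in Dbp introns 1 and 2, 38 bp at the Tef internal start, 42 bp at the Tef 3' flank, 70 bp upstream of Dbp and 93 bp upstream of Hlf. Their median, 40 bp, was above the median of 21 bp over all 212 pairs.

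The CACGTG e-box, the canonical CLK:BMAL1 element, was within 100 bp of the summit at 5 of the 9 sites, against 22.7% of all sites of the table. That background holds sites of every class and strength, whereas 6 of the 9 were shared and 8 had a BMAL1 score of at least 100. A share with an e-box was not computed for sites of like class or strength. The summit was that of CLK at shared sites and of BMAL1 elsewhere. Each of the 4 genes had a site with an e-box. At least 2 e-boxes were present at 3 sites (Dbp intron 2, Hlf far upstream and the Nfil3 intron), against 4.51% of all sites. Counted from the BMAL1 summit there were 4 such sites, the Tef internal start being added, against 4.65% of all sites. At Dbp intron 2 position 3 of the hexamers lay 30 bp before and 83 bp after the BMAL1 summit. Upstream of Hlf there were 3 e-boxes within 100 bp of the BMAL1 summit and 2 within 100 bp of the CLK summit, the latter separated by 6 bp. A CACGTG with another such hexamer, at most 1 base different, 6 or 7 bp away stood within 100 bp of the summit at 1 of the 9 sites, this one, against 2.54% of all sites. At the Tef internal start, an e-box 77 bp before the BMAL1 summit was followed after a gap of 6 bp by the hexamer CTCGTG, but this pair lay beyond 100 bp from the CLK summit. The e-boxes of Nfil3 were 9 bp apart, at 38 and 23 bp before the BMAL1 summit, and a CACATG followed 11 bp after them.

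**Figure D4:**
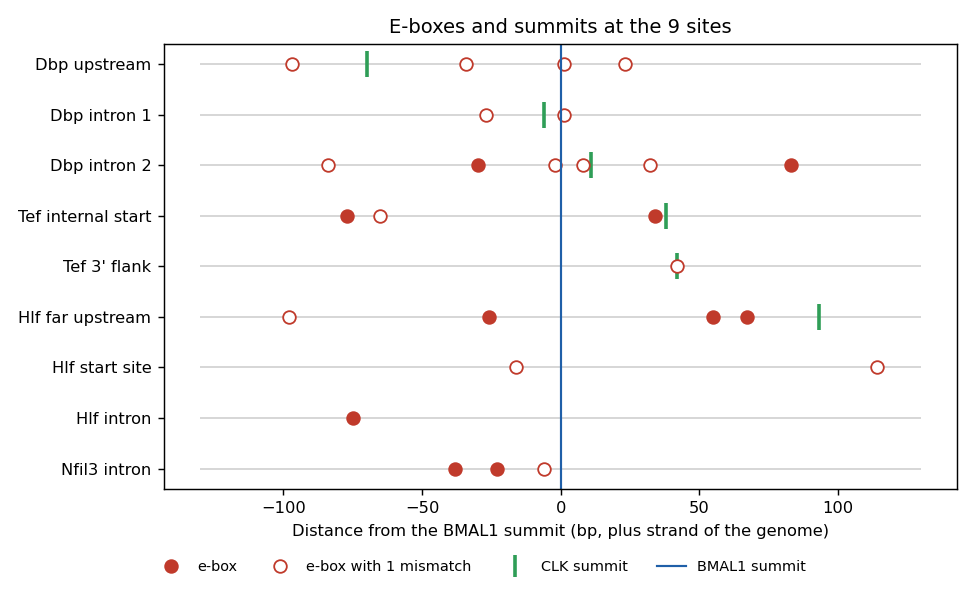
Distance in bp from the BMAL1 summit (blue line at 0, plus strand) of e-boxes (filled circles), hexamers with 1 mismatch within 120 bp (open circles) and the CLK summit (green bars) at the 9 sites. Nfil3 and Hlf far upstream have the most closely spaced e-boxes, and Dbp upstream, Dbp intron 1, the Tef 3' flank and the Hlf start site have none.

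Sites without a CACGTG were among the strong ones. The Dbp upstream and intron 1 sites, with BMAL1 folds of 16.33 and 24.99, had no CACGTG anywhere in either peak, whereas the Hlf intron site, with a fold of 5.09, had one at 75 bp from its summit. Hexamers with at most 1 mismatch were within 100 bp of the summit at 9 of 9 sites, but 71.0% of all sites had one. At Dbp intron 1 the hexamer CACATG had its position 3 at 1 bp from the BMAL1 summit, and at Dbp upstream a CACGCG lay equally close. At the Hlf start site a CATGTG lay 16 bp from the summit.

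By position, 3 of the 9 summits were within 1000 bp of the start in the table (Dbp upstream, Dbp intron 1 and the Hlf start site), against 16.5% of all sites. With the nearest annotated start of any transcript of the same gene the number was 5, the additional ones being Dbp intron 2 and the Tef internal start, against 21.0% of the 1721 sites whose symbol was found in GENCODE M1. Genes with many annotated starts have more chances under this definition, and Tef had 11 distinct starts, Hlf 6, Dbp 4 and Nfil3 1. None of the definitions brought the Nfil3 site nearer than 6141 bp.

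Elements of the downstream pathway were also searched in the sites. The D-box TTATGTAA or TTACGTAA, read on both strands, occurred in 1 of the 9 sites, the Tef 3' flank, against 2.82% of all sites of the table. In the RefSeq promoter windows, which run from 250 bp before to 50 bp after a start (GRCm38.p6), no D-box was present in the 5 windows of the 4 genes, against 1.06% of 32851 windows. A CACGTG was present in 2 of the 5 windows, both of Tef, against 7.15% of all. TAGGTCA, the core of a ROR element, searched on both strands and chosen after the sequences had been seen, was in 3 of the 9 sites (Dbp upstream, Dbp intron 1 and Hlf far upstream), against 5.22% of all sites. Whole peaks were searched, and a longer peak has more places for a motif. The peaks searched at these 3 sites were CLK peaks of 745, 596 and 624 bp. Their BMAL1 peaks, not used for this count, were 1329, 822 and 900 bp long, against a median of 465.5 bp for all BMAL1 peaks. TAGGTCA was in 1 of the 5 promoter windows, that of Nfil3, against 2.61% of all. In the Nfil3 window it began 12 bp before the start, as TGACCTA on the sense strand.
Nfil3 promoter (GRCm38.p6 minus strand, chr13:52981033-52981062): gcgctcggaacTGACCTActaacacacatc

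Genes known as targets of the PAR bZIP proteins or NFIL3 were then counted. Of 17 listed genes, 7 had no site, and Rora had 1 BMAL1 only site and 1 CLK only site but none shared. The other 9 had a CLK:BMAL1 site, against 0.744% of 21900 RefSeq protein-coding genes. With the site required to lie in the gene or within 10000 bp of its start, the number was 8, since the Por site lay farther away. The list was written with earlier results of these data known, and most of the 9 are themselves clock genes. They were Per1, Per2, Per3 and Cry1, repressors of CLK:BMAL1, Nr1d1 and Nr1d2, encoding the REV-ERB proteins, Por and Alas1, which supply electrons and haem to cytochromes P450, and Alb, encoding albumin. No site of any class was given to the symbols of the cytochrome P450 genes Cyp2a4, Cyp2a5, Cyp2b10, Cyp3a11 and Cyp7a1, the xenobiotic receptor gene Nr1i3 and the hormone gene Fgf21. A peak near them that carried another symbol would not be counted. The BMAL1 fold at the shared sites was 13.9 at Por, 5.22 at Alas1 and at most 7.57 at Alb, all below the strongest sites of Dbp, Tef and Hlf. For Hlf this was the far upstream site, whose target was not tested. The Hlf start site, with a fold of 11.4, was below Por. Alb also had 7 CLK only sites.

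Clock repressor genes gave a scale for these numbers. The Period genes had 5 sites, with strongest BMAL1 folds of 28.4 (Per1), 15.3 (Per2) and 14.3 (Per3). The cryptochrome genes and Gm129 (Ciart) had 4 sites, with folds of 12.7 (Cry1), 20.2 (Cry2) and 22.7 (Gm129). The REV-ERB genes had 5 sites, with folds of 36.9 (Nr1d1) and 34.6 (Nr1d2). Each of these 8 genes had at least 1 shared site, which Nfil3 did not, and the strongest BMAL1 fold of Nfil3 was below those of all 8. Of these genes only Nr1d1, with 4, had more shared sites than the 3 of Dbp, but the 4 sites of Nr1d1 overlapped 3 BMAL1 peaks, as many as Dbp had. The highest CLK fold among the 4 genes, 14.3 at Dbp, was close to the 14.5 of Per1 and below the 24.0 of Nr1d1. These differences were not tested.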

How the data were processed

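CLK, BMAL1 and Input libraries were 36 nt reads after 15 PCR cycles (CASAVA 1.6 and bowtie, per the submitters' processing notes). The authors mapped them to mm9, kept uniquely mapped reads, and ran MACS on either ChIP library with Input as control (p-value cutoff 1e-05, band width 80, model fold 5, per the file headers). The deposited lists give counts of tags, a score (10 times the negative log10 p-value), a fold enrichment (ratio of ChIP to local Input) and an FDR in percent. The deposited table of the series gives class, gene and positions, with a CLK peak's position for shared sites; its distances were not used and were recomputed from the summit. No column of another sample was used.

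Members and lists were chosen with earlier results of these data known. Sites at Dbp, Tef, Hlf and Nfil3 were all named, together with listed D-box targets and 8 clock repressor genes. Tags were given exact Poisson intervals, and ratios exact binomial intervals (95%, scipy 1.17.1). Sequences came from NCBIM37 (mm9), features from GENCODE M1 and promoters from RefSeq (GRCm38.p6), matched by symbol for all 4 genes and placed on mm9 by sequence identity. Summits were counted from 1 at the peak start. The overlap, motif and interval routines were tested on simulated data. Genomes were read with pysam 0.24.0. The MACS version is not given in the sources used here. Alternatives to thresholds, distances, scaling and motif rules were computed.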

Additional observations from a re-analysis of the deposited data

Results flagged for a closer look

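A BMAL1 peak at the first start of Tef carried another symbol in the table (AK045688), and was therefore not among the 9 sites. It lay on mm9 chromosome 15 from 81632599 to 81633408, with a score of 91.23, a fold of 5.92 and 66 tags (95% Poisson interval 51.0 to 84.0), ranking 276 of 1578 by score and 1202 by fold. It drew attention as signal over Input in data outside the comparisons. Its summit was 128 bp downstream of the first Tef start in GENCODE M1, in exons of Tef-001 and of Gm17597, and no CLK peak overlapped it. Its e-box had its position 3 at 1 bp from the summit, and is shown in capitals (chr15:81632964-81632993).
Tef first start: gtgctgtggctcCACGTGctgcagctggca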

How the results depend on the processing

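The 8 results had 21 alternative values, and 15 of these stayed close to the value reported while 6 moved. The number of sites was 8 to 10 and of shared sites 5 to 6 under every alternative tried. Relative to Nfil3, the median of the strongest sites of Dbp, Tef and Hlf was 2.16 by fold enrichment and 8.39 by MACS score. A value by CLK fold could not be had because Nfil3 has no CLK peak. The median ratio of BMAL1 to CLK tags was 1.57 per kb of peak, and peak centres were a median of 73.8 bp apart in place of 40 for summits. Sites with an e-box were 9 with at most 1 mismatch allowed and 3 when at least 2 were asked for, or 4 from the BMAL1 summit, both added after the data were seen. Sites near a start were 5 with the nearest annotated start. The cause of these moves was not tested. No paired analysis was possible because each group holds 1 library, and for the same reason no library could be left out in turn. With a single library per antibody, biological and technical variation between libraries was not measured, and the CLK level is not known where no CLK peak was called.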
